A study of Homo sapiens with 8 samples.

Results

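The glutamate tRNAs comprise 2 isoacceptors, tRNA-Glu-CTC and tRNA-Glu-TTC. Members were found by name, as every sense-strand crosslink site on a tRNA reference called tRNA-Glu. This gave 7 of the 252 tRNA references named in the site files, which stand for 16 of 413 tRNA genes. The references were contacted in 2 human cell lines, one expressing 3xFLAG-DUS2L and the other 3xFLAG-DUS1L, and read out by iCLIP, which maps the nucleotide at which a tagged protein was covalently joined to RNA. Each site carries a whole-number count, used here as deposited.

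All cells were Flp-In T-REx 293, a human embryonic kidney line in which a tagged gene is placed at a fixed genomic site under a tetracycline-inducible promoter. The 4 groups had 2 libraries each. They were DUS2L cells given 100 µM 5-ClUrd for 12 h, DUS2L cells left untreated, DUS1L cells given 100 µM 5-ClUrd for 12 h, and DUS1L cells left untreated. All of them, untreated ones included, received 1 µg/mL tetracycline from 12 h before that period until its end, so every library comes from cells induced to make the tagged enzyme, and no uninduced or untagged library was analysed here. The site files hold only tRNA and rRNA, so neither the kidney origin nor the tagged enzyme could be checked from marker transcripts. The DUS2L and DUS1L site files also carry different file labels for the mapping step, and enzyme and file preparation therefore cannot be told apart in any comparison between the enzymes.

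Glutamate tRNAs read the codons GAA and GAG. The isoacceptor with anticodon TTC carries a heavily modified, thiolated uridine at the first anticodon position, and the one with CTC has a cytidine there. Dihydrouridine synthases reduce single uridines to dihydrouridine, mainly in the D loop, in the 5′ part of the tRNA. In yeast the relatives of DUS1L act at positions 16 and 17 and that of DUS2L acts at position 20, whereas position 47 belongs to another enzyme of the family; human DUS2L is also known for position 20. 5-ClUrd (5-chlorouridine) is taken up and built into RNA, where a halogenated uridine can trap such an enzyme on its substrate through a covalent bond to its catalytic cysteine. Because a count is a share of one library, more contact per tRNA and more tRNA molecules cannot be told apart.

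The 16 genes were all matched by name to RefSeq's annotation of GRCh38.p14, and each is 72 nt long. tRNA-Glu-CTC has 8 genes behind 2 references. Reference Glu-CTC-1 stands for 7 genes, among them TRE-CTC1-1 on chromosome 1 (146035692 to 146035763) and TRE-CTC1-6 on chromosome 6 (28982199 to 28982270), and Glu-CTC-2 for 1 gene, TRE-CTC2-1 on chromosome 1 (248874248 to 248874319). tRNA-Glu-TTC has 8 genes behind 5 references. They include TRE-TTC1-1 on chromosome 2 (130337128 to 130337199), TRE-TTC2-1 on chromosome 13 (44917927 to 44917998) and TRE-TTC2-2 on chromosome 15 (26082234 to 26082305), and 1 of the 8, TRE-TTC14-1, is annotated as a pseudogene. In all, 10 genes lie on chromosome 1, 2 each on chromosomes 6 and 13, and 1 each on chromosomes 2 and 15. Positions below count from the 5′ end of the reference and were not aligned to conventional tRNA numbering. A position may therefore differ from the conventional one of the same number, also in the D loop.

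Depth was uneven. The libraries held 370878 and 363024 sense counts in treated DUS2L cells, 130011 and 172078 in untreated DUS2L cells, 824657 and 542521 in treated DUS1L cells, and 144322 and 7369 in untreated DUS1L cells. The second untreated DUS1L library stands apart, with 714 sense sites against 4034 in its partner. It held no glutamate tRNA count at all, and at its depth a count of 0 allows a share of up to 0.0407%. The highest count at a single site was 555 to 1436 in the 8 libraries although their totals spanned 7369 to 824657. Glutamate sites reached 1109 and 1111 counts in treated DUS2L cells, 506 and 771 in untreated DUS2L cells, and 74 and 93 in treated DUS1L cells. Intervals and limits given for shares cover counting error only.

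Glutamate tRNA was far more prominent in DUS2L libraries than in DUS1L libraries, under both treatments and for both isoacceptors. Together the isoacceptors made up 8.15% and 5.67% of sense counts in treated DUS2L cells, against 0.0594% and 0.0842% in treated DUS1L cells. Without the analogue they made up 4.56% and 4.58% in DUS2L cells, against 0.0146% and 0% in DUS1L cells. The DUS2L and DUS1L libraries did not overlap.

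**Figure D1:**
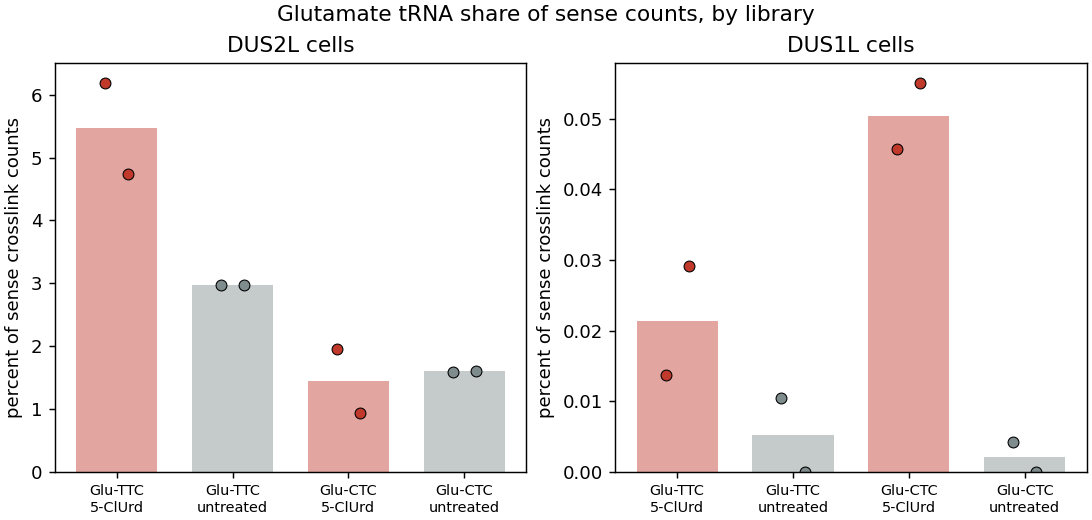
Share of each library's sense crosslink counts on tRNA-Glu-TTC and tRNA-Glu-CTC, in DUS2L cells (left) and DUS1L cells (right), with 5-ClUrd beside untreated; points are the 2 libraries of a group and bars their mean. The vertical axes differ: tRNA-Glu-TTC reaches 6.19% in DUS2L cells, and no DUS1L value exceeds 0.0551%.

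The TTC isoacceptor separated the enzymes most among treated cells. tRNA-Glu-TTC had 22972 and 17216 counts in treated DUS2L cells (6.19% and 4.74% of sense counts), against 113 and 158 in treated DUS1L cells (0.0137% and 0.0291%). Its share averaged 5.47% ± 1.03 in treated DUS2L cells and 0.0214% ± 0.0109 in treated DUS1L cells (SD, n = 2 each), which was a fold of 256 (log2 8.0007 ± 0.62, adjusted p = 1.90e-05 in edgeR's quasi-likelihood test over 55 tRNA and rRNA families with Benjamini-Hochberg adjustment). tRNA-Glu-CTC had 7251 and 3373 counts in treated DUS2L cells (1.96% and 0.929%), against 377 and 299 in treated DUS1L cells (0.0457% and 0.0551%). The edgeR fold was 28.6 (log2 4.84 ± 0.49, adjusted p = 6.89e-05). In this comparison 38.2% of all families were higher in DUS2L cells, with a median log2 difference of 0.49, so both glutamate families lie among the 21 higher ones.

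Untreated cells gave the same direction on very few DUS1L counts. tRNA-Glu-TTC had 3861 and 5115 counts in untreated DUS2L cells (2.97% in each), against 15 and 0 in untreated DUS1L cells. tRNA-Glu-CTC had 2064 and 2769 in untreated DUS2L cells (1.59% and 1.61%), against 6 and 0 in untreated DUS1L cells. The edgeR log2 differences were 8.31 ± 0.72 for TTC (adjusted p = 2.65e-05) and 8.68 ± 0.70 for CTC (adjusted p = 2.33e-05), where 47.3% of families were higher and 41.8% lower. The sizes of these folds rest on those 15 and 6 counts. Both calls passed in every alternative that gave a value, and without the first untreated DUS1L library, which leaves that group at 0, the adjusted p was 1.61e-05 for TTC and 6.10e-05 for CTC.

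Families were ranked by the mean share of sense counts over the 2 libraries of a group, not per length. tRNA-Glu-TTC was the 5th of 55 families in treated DUS2L cells and the 12th in untreated DUS2L cells. It was the 46th and the 45th in treated and untreated DUS1L cells. tRNA-Glu-CTC ranked 28th and 19th in treated and untreated DUS2L cells, and 44th and 48th in treated and untreated DUS1L cells. Among treated cells, TTC thus ranked above CTC in DUS2L cells and below it in DUS1L cells, and among untreated cells it ranked above CTC with both enzymes. CTC supplied 24.0% and 16.4% of glutamate counts in treated DUS2L cells and 34.8% and 35.1% in untreated DUS2L cells, where TTC led. In treated DUS1L cells CTC supplied 76.9% (95% exact binomial interval 73.0% to 80.6%) and 65.4% (60.9% to 69.8%). The 21 counts of the first untreated DUS1L library, 6 of them CTC (28.6%, interval 11.3% to 52.2%), are too few to place it. These proportions are given as a description with no test.

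With 5-ClUrd in DUS2L cells, tRNA-Glu-TTC rose and tRNA-Glu-CTC did not pass the test. The TTC share was 6.19% and 4.74% in treated cells, against 2.97% in both untreated libraries, and the groups did not overlap. edgeR on the 4 DUS2L libraries gave a fold of 1.84 (log2 0.88 ± 0.23, adjusted p = 0.0110), next to a median log2 change of 0.86 over all 55 families, of which 52.7% rose. The TTC rise was therefore about the size of the median family's. It depended on the scaling: with TMM factors, which shift that median by -0.65, the change was 0.23 (adjusted p = 0.418), and without either untreated library the adjusted p was 0.122 or 0.140.

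The CTC share was 1.96% and 0.929% in treated DUS2L cells, on either side of the 1.59% and 1.61% in untreated DUS2L cells. The edgeR log2 change was -0.15 ± 0.35 (adjusted p = 0.721). The 2 treated libraries set its direction: without the first the change was -0.78 (adjusted p = 0.000139), and without the second it was 0.29 (adjusted p = 0.110). Relative to the other families it was lower under TMM factors (-0.80, adjusted p = 0.0171), and with sites above 500 counts left out it was 0.61 (adjusted p = 0.113).

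In DUS1L cells the isoacceptor that passed the test was the other one, at a far lower level. tRNA-Glu-CTC had 377 and 299 counts with 5-ClUrd, against 6 and 0 without, and its share was 0.0457% and 0.0551% in treated cells, against 0.00416% and 0%. edgeR gave a log2 change of 3.75 ± 0.92 (adjusted p = 0.0347), where 22.6% of 53 families rose and the median change was 1.35. tRNA-Glu-TTC had 113 and 158 counts with 5-ClUrd against 15 and 0 without, a log2 change of 1.29 ± 0.92 (adjusted p = 0.288).

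The shallow second untreated DUS1L library bears on both values, since the 0.0407% that its 0 counts allow lies above the treated TTC shares of 0.0137% and 0.0291% and just under the treated CTC shares. Without that library the CTC change was 3.59 (adjusted p = 0.0120). The CTC rise missed the threshold with TMM factors (2.66, adjusted p = 0.0803), which shift the median family by -1.03, without either treated library (adjusted p = 0.437 and 0.460) and without the first untreated one (adjusted p = 0.176).

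The response of tRNA-Glu-CTC differed between the enzymes when tested directly. The log2 change with 5-ClUrd in DUS2L cells minus that in DUS1L cells was -3.85 ± 0.79 in one edgeR fit of all 8 libraries (adjusted p = 0.0125), where 18.2% of 55 families differed in that direction and the median was -0.31. For tRNA-Glu-TTC the difference was -0.31 ± 0.78 (adjusted p = 0.731). The CTC difference takes its DUS1L baseline from 6 counts, and its adjusted p was above 0.05 with the second treated DUS1L library left out (0.0650), with the first untreated DUS1L library left out (0.0845) and with sites above 500 counts left out (-2.24, adjusted p = 0.0956).

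Neighbouring tRNAs of the split codon boxes, given as a list for context, did not move as a block. They were the glutamine tRNAs CTG and TTG and the lysine tRNAs CTT and TTT, whose TTG and TTT members share the modified first anticodon uridine with tRNA-Glu-TTC, and the aspartate tRNA GTC. In DUS2L cells 4 of the 5 rose with 5-ClUrd, by 1.18 to 1.95 on the log2 scale, and tRNA-Asp-GTC gave -0.38 ± 0.19 (adjusted p = 0.101). Over all families 52.7% rose, and their median of 0.86 compares with 1.62 for the list. In DUS1L cells 3 of 5 rose, the glutamine tRNAs and tRNA-Asp-GTC, and none fell (median 2.91), against 22.6% of all families with a median of 1.35. The same 3 had a lower response in DUS2L than in DUS1L cells, as did 18.2% of all families. With 5-ClUrd, DUS2L cells had more of 2 of the 5 than DUS1L cells, tRNA-Asp-GTC (log2 4.22 ± 0.25) and tRNA-Gln-TTG (2.80 ± 0.31), a share near the 38.2% of all families. Untreated, 3 of the 5 were higher and both lysine tRNAs lower in DUS2L cells, against 47.3% and 41.8% of all families.

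Over the 8 libraries the families whose log2 share tracked tRNA-Glu-CTC most closely were tRNA-Asp-GTC, tRNA-Leu-TAG and tRNA-Leu-AAG, with Pearson r of 0.994, 0.994 and 0.984 among 54 other families. Those nearest to tRNA-Glu-TTC were tRNA-Gly-CCC, tRNA-Leu-AAG and tRNA-Asp-GTC, with r of 0.992, 0.967 and 0.966. The glutamate isoacceptors tracked each other with r of 0.963, which placed TTC 8th for CTC and CTC 4th for TTC. The 8 points fall into DUS2L and DUS1L clusters and share their library totals, so these coefficients describe the shift between the cell lines.

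Within tRNA-Glu-CTC, counts were held in a narrow window. Positions 13 to 33 held 99.9% and 98.8% of its counts in treated DUS2L cells, 99.9% and 99.7% in untreated DUS2L cells, and 99.2% and 99.3% in treated DUS1L cells. Over all libraries its counts lay within 20 nt (positions 14 to 33, the span of the central 99%), which made it the second narrowest of 50 tRNA families after tRNA-Gly-TCC at 18 nt. The window is that of reference Glu-CTC-1, which carried nearly all CTC counts. Glu-TTC-4 also ended at position 33, whereas Glu-CTC-2 reached position 62. Whether the assignment of reads shared by several references sets this end was not tested. tRNA-Glu-TTC had counts at 62 positions, from 2 to 63, and positions 13 to 33 held 46.7% and 32.5% of them in treated DUS2L cells and 33.95% and 34.12% in untreated DUS2L cells. Neither isoacceptor had a count at position 1 or beyond position 63.

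**Figure D2:**
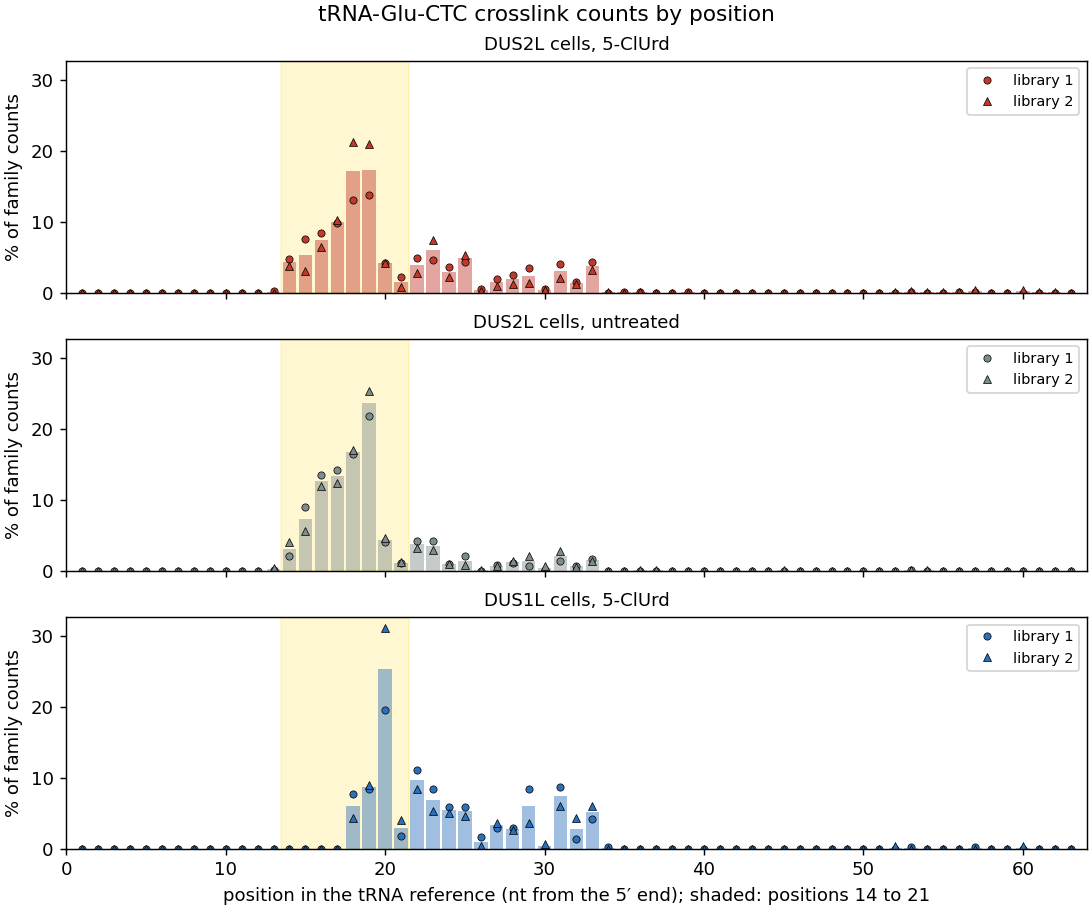
Percent of tRNA-Glu-CTC counts at each position of the reference, for treated DUS2L cells (top), untreated DUS2L cells (middle) and treated DUS1L cells (bottom); bars are the mean of 2 libraries, and circles and triangles are the libraries. Counts climb from position 14 to a peak at positions 18 and 19 in DUS2L cells, whereas in treated DUS1L cells they begin at position 18 and peak at position 20.

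In DUS2L cells the D-loop window, positions 14 to 21, held most tRNA-Glu-CTC counts, with positions 18 and 19 in front. Position 19 had 996 and 707 counts in treated DUS2L cells (17.3% ± 5.11 of the family, SD, n = 2), against 450 and 703 in untreated DUS2L cells (23.6% ± 2.54). Position 18 had 950 and 717 counts in treated DUS2L cells (17.2% ± 5.77) and 340 and 473 in untreated DUS2L cells (16.8% ± 0.431). Position 17 followed at 9.96% ± 0.296 in treated and 13.3% ± 1.28 in untreated cells, and position 16 at 7.40% ± 1.41 and 12.7% ± 1.12. Position 15 was the fifth in untreated cells, with 186 and 154 counts, and position 23 in treated cells, with 329 and 252. Position 20 had 302 and 139 counts in treated cells and 84 and 126 in untreated cells, and position 47 had none in any library.

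In treated DUS1L cells the leading position of tRNA-Glu-CTC was 20, with 74 and 93 counts (19.6% and 31.1% of the family). It was followed by position 22 (42 and 25 counts), position 19 (32 and 27), position 31 (33 and 18) and position 23 (32 and 16). Of the 6 untreated counts, 2 were at position 20, 2 at 23, 1 at 24 and 1 at 32.

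Positions 13 to 17 of tRNA-Glu-CTC, a stretch chosen after its values were seen, held 30.6% and 23.4% of the family's counts in treated DUS2L cells and 38.9% and 34.2% in untreated DUS2L cells. In treated DUS1L cells they held 0 of 377 and 0 of 299 counts, and 0 of 676 allows a share of up to 0.444%. The stretch was not empty in those libraries otherwise: it held 15.2% and 15.8% of all other tRNA counts, and 23.9% and 6.33% of tRNA-Glu-TTC counts. Of 46 families with at least 100 counts in treated DUS1L cells, 2 had none there, and the other, tRNA-Leu-CAG, also had none in treated DUS2L cells. Whether reads that match several tRNA references were handled alike in both sets of files was not tested.

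Tested site by site between treated cells, 22 of 24 tRNA-Glu-CTC positions were higher in DUS2L than in DUS1L cells and none lower, where 22.9% of 4424 positions over all families were higher. Of the 24, 5 had no count in any DUS1L library and entered through DUS2L counts alone. Against the floor of 3 counts over the group, position 17 was at least 652-fold higher in DUS2L cells (1050 counts against 0). Position 16 was at least 512-fold higher (825 against 0). Both are among those 5 and lie in the stretch chosen after its values were seen, so no p-value is given for them. Position 18 was higher by 6.23 ± 0.90 on the log2 scale (adjusted p = 1.84e-10) and position 19 by 5.70 ± 0.85 (adjusted p = 7.96e-10). Position 20 differed least among the called positions, by 2.20 ± 0.87 (adjusted p = 0.0313), and it did not pass with DESeq2's size factors, with a minimum of 1 count, with the replicate number as a block (adjusted p = 0.0697), without either treated DUS1L library (0.268 and 0.109) or without the first treated DUS2L library (0.181). In untreated cells 18 of 24 CTC positions were higher in DUS2L cells, where 21.8% of positions were. Untreated DUS1L cells had no count at 20 of these 24, so this tally largely restates the difference of the whole family.

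All 60 tested positions of tRNA-Glu-TTC were higher in treated DUS2L than in treated DUS1L cells, against 22.9% of 4424 positions over all families. In untreated cells 41 of 60 were, against 21.8%. Positions entered by their counts over all 8 libraries, and 18 of the 60 had no count in any DUS1L library. In untreated DUS1L cells 47 of the 60 had none. These tallies therefore largely restate the difference of the whole family. Position 9, conventionally between the acceptor and D stems, had 2336 and 1433 counts in treated DUS2L cells, against 6 and 30 in treated DUS1L cells (log2 7.37 ± 0.84, adjusted p = 4.72e-16). Position 2 had 2186 and 2193 counts in treated DUS2L cells, against 3 and 14 (log2 8.69 ± 0.90, adjusted p = 1.43e-18). Position 34, the conventional first base of the anticodon, had 1457 and 1355 counts in treated DUS2L cells, against 1 and 28 (log2 7.21 ± 0.88, adjusted p = 3.28e-14). The DUS1L libraries disagreed at positions 9 and 34 by more than at position 33, which had 14 and 16 counts there.

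**Figure D3:**
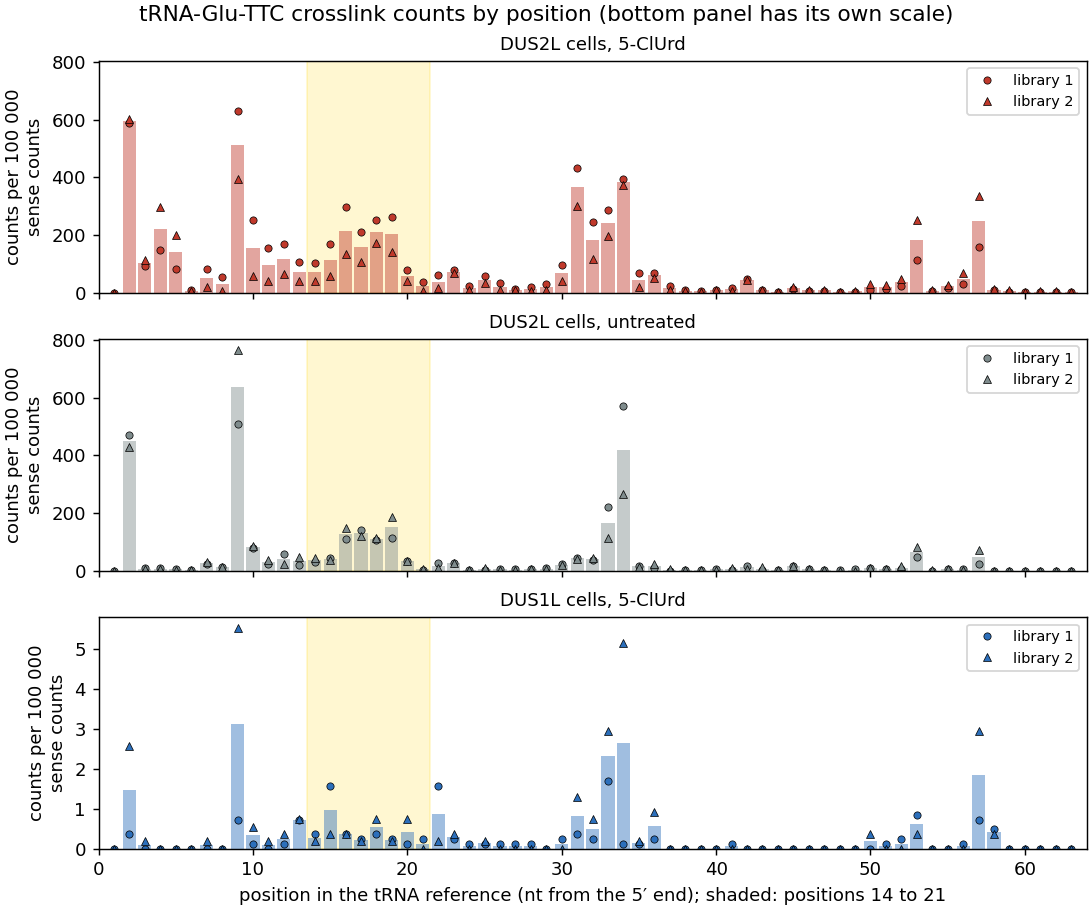
tRNA-Glu-TTC counts per 100000 sense counts at each position of the reference, in treated DUS2L cells (top), untreated DUS2L cells (middle, same scale) and treated DUS1L cells (bottom, its own scale); bars are the mean of 2 libraries, and circles and triangles are the libraries. Positions 2 and 9 stand out in all DUS2L libraries and position 34 in all but the first treated one, where position 31 is taller, and positions 3 to 5, 31, 32, 53 and 57 are taller with 5-ClUrd.

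The profile of tRNA-Glu-TTC in DUS2L cells had several peaks outside the D loop. In untreated DUS2L cells positions 9, 2 and 34 led with 21.4% ± 6.12, 15.2% ± 0.978 and 14.1% ± 7.27 of the family's counts, followed by position 33 (288 and 193 counts) and position 19 (149 and 321). With 5-ClUrd, positions 2, 9 and 34 led with 11.1% ± 2.28, 9.25% ± 1.30 and 7.11% ± 1.08, and positions 31 and 57 came next with 6.64% ± 0.456 and 4.81% ± 3.21 (SD, n = 2 each). The 5 leading positions together held 38.9% of TTC counts in treated cells and 61.3% in untreated cells, so the treated profile was flatter.

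At the 3 leading positions no change with 5-ClUrd was called. Position 2 had 589 and 604 counts per 100000 sense counts in treated DUS2L cells, against 471 and 430 in untreated DUS2L cells (log2 0.41 ± 0.25, adjusted p = 0.164). Position 9 had 630 and 395, against 508 and 765 (log2 -0.31 ± 0.24, adjusted p = 0.270). Position 34 had 393 and 373, against 570 and 265 (log2 -0.12 ± 0.28, adjusted p = 0.729). Treated and untreated libraries overlapped at positions 9 and 34 and not at position 2. A missed threshold does not show equal levels, and whether site counts have a ceiling was not tested. Position 2 is where single references came closest to the highest site counts of their libraries: Glu-TTC-1 and Glu-TTC-2 had 1075 and 1109 counts there in the first treated DUS2L library and 1082 and 1111 in the second.

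The TTC positions that rose were others, on both sides of the anticodon and, at position 36, within it by conventional numbering. In DUS2L cells 19 of 60 tested TTC positions rose with 5-ClUrd and none fell, where 15.5% of 3582 positions over all families rose, 23.8% fell and the median log2 change was -0.56. The comparison with all families depended on the minimum count. At a minimum of 50 counts, 11 of 52 TTC positions rose and none fell. Over all families 423 of 1389 positions then rose, 212 fell and the median was 0.90. TTC positions thus rose less often than all positions at that minimum. Position 5 had 305 and 727 counts in treated DUS2L cells, against 6 and 6 in untreated DUS2L cells (log2 5.12 ± 0.72, adjusted p = 2.73e-10). Position 4 had 542 and 1080, against 12 and 9 (log2 4.95 ± 0.58, adjusted p = 6.44e-15), and position 3 had 344 and 412, against 10 and 11 (log2 3.87 ± 0.75, adjusted p = 1.02e-05). These 3 positions adjoin position 2, at which no change was called.

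Other rises lay where, by conventional numbering, the 5′ strand of the anticodon stem meets the anticodon loop. Position 31 had 1600 and 1088 counts in treated DUS2L cells, against 57 and 70 in untreated DUS2L cells (log2 3.11 ± 0.41, adjusted p = 4.24e-12). Position 32 had 910 and 421, against 46 and 77 (log2 2.17 ± 0.50, adjusted p = 0.000300). Position 33 next to them had 1069 and 717, against 288 and 193, and did not pass (log2 0.54 ± 0.37, adjusted p = 0.217).

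Further rises lay in the 3′ part of the tRNA, in what is the T arm by conventional numbering. Position 57 had 584 and 1219 counts in treated DUS2L cells, against 31 and 122 in untreated DUS2L cells (log2 2.37 ± 0.45, adjusted p = 6.66e-06). Position 56 had 107 and 245, against 6 and 5 (log2 3.68 ± 0.96, adjusted p = 0.00143), and position 53 had 423 and 914, against 63 and 139 (log2 1.498 ± 0.47, adjusted p = 0.00778). Position 53 was the least stable of the 3, at 0.81 (adjusted p = 0.186) without the second treated library and 1.96 without the first, and it also missed the threshold in one fit of 8 libraries (adjusted p = 0.125). Positions 58 and 59 had no untreated count and were at least 10.2-fold and 6.17-fold higher in treated cells against a floor of 3 counts over the group. The treated libraries differed here, with more counts in the second than in the first at each of these 5 positions.

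The other 9 positions that rose were 11, 12, 15, 25, 30, 36, 37, 42 and 54, with log2 changes of 1.46 at position 15 to 4.12 at position 54 and adjusted p of 0.0129 at position 25 to 0.0481 at position 36. In the D loop itself position 15 was the exception. Reference positions 16, 17 and 20 bear the conventional numbers of dihydrouridine sites, but without alignment they may not be those nucleotides. In edgeR they gave log2 changes of 0.75 ± 0.40 (adjusted p = 0.115), 0.28 ± 0.43 (0.594) and 0.82 ± 0.70 (0.332). Position 47 had 15 and 38 counts in treated cells, against 4 and 2 (log2 1.79 ± 1.20, adjusted p = 0.206).

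**Figure D4:**
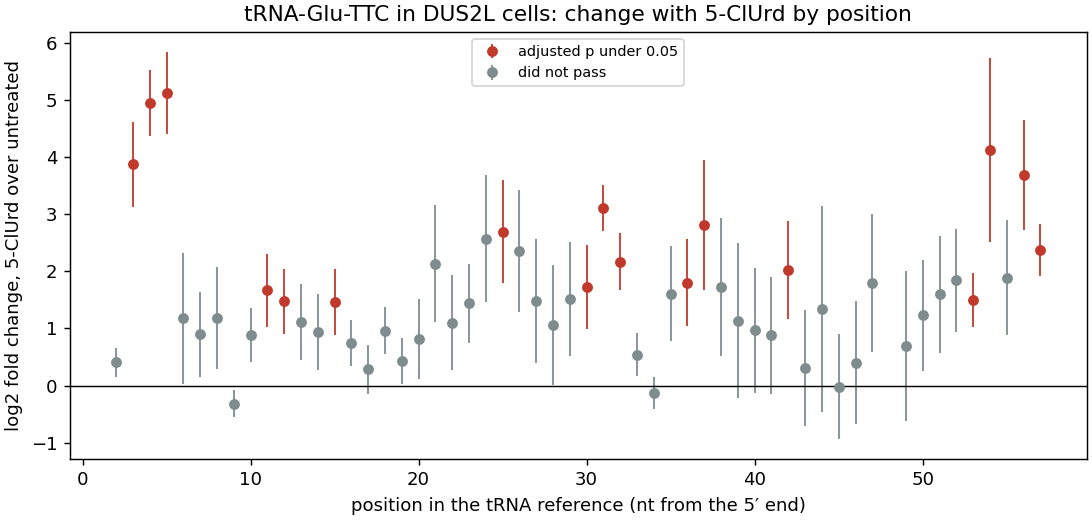
Log2 fold change of tRNA-Glu-TTC with 5-ClUrd over untreated in DUS2L cells at each tested position that had counts in both groups, with edgeR standard errors; red points had an adjusted p under 0.05 over 3582 positions of all families. The tallest points are at positions 3 to 5, 31, 54 and 56, and positions 2, 9 and 34 lie within 0.41 of 0.

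The count of 19 rises depended on the scaling and on the untreated libraries. With TMM factors, which move the median of all positions by 0.67, 36 TTC positions rose, the 19 among them. With either untreated library left out no position of any family passed, of 2874 and 2952 tested, and 10 and 11 TTC positions had an unadjusted p under 0.05. With any 1 of the 4 libraries left out, the log2 change was 4.35 to 5.40 at position 4 and 2.83 to 3.35 at position 31.

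tRNA-Glu-CTC had no called position in DUS2L cells with 5-ClUrd, of 24 tested in edgeR, with 4 at an unadjusted p under 0.05 and 3 called higher by DESeq2. Calls appeared in both directions under other settings: 5 positions were higher with TMM factors, 4 lower without the first treated library and 3 higher without the second. The D-loop positions 16 and 19 gave -0.86 ± 0.42 (adjusted p = 0.0846) and -0.70 ± 0.31 (adjusted p = 0.0595), and position 17 gave -0.57 ± 0.40 (adjusted p = 0.221), position 18 -0.24 ± 0.34 (0.567) and position 20 -0.20 ± 0.61 (0.803). In DUS1L cells 4 of 14 tested CTC positions rose with 5-ClUrd, where 26.8% of 2132 positions rose. All 14 entered through treated counts, as untreated DUS1L cells held only 6 CTC counts, and all 14 changes were positive. The called share is near that of all positions, so the tally shows nothing particular to CTC. Position 20 had 74 and 93 counts with 5-ClUrd, against 2 and 0 (log2 3.30 ± 1.12, adjusted p = 0.0431). Positions 22, 19 and 31 had no untreated count and were at least 2.48-fold, 2.18-fold and 1.89-fold higher against the floor. None of 10 tested TTC positions passed in DUS1L cells in edgeR, none had an unadjusted p under 0.05, and DESeq2 called none. With TMM factors no glutamate position passed in DUS1L cells. The difference in response between the enzymes was called at none of 24 CTC and 60 TTC positions in edgeR, where 2.51% of 4424 positions were. Of those, 5 CTC and 18 TTC positions had no count in any DUS1L library and so hold no DUS1L response, and 20 and 47 had none in untreated DUS1L cells, so a missing call says little. At an unadjusted p under 0.05 there were 4 CTC and 4 TTC positions, and DESeq2 called 0 and 4.

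Shares within a family, which do not depend on how libraries are scaled, were compared by region. The smallest p that an exact permutation test of 2 against 2 libraries can give is 0.333, so none of these could pass. Positions 14 to 21 held 63.6% and 70.5% of tRNA-Glu-CTC in treated DUS2L cells, against 82.2% and 82.0% in untreated DUS2L cells, 15.0 points less on average without overlap (two-sided exact p = 0.333). The next stretch, positions 22 to 26, held 17.93% and 17.97% in treated DUS2L cells, against 11.4% and 7.98%. In treated DUS1L cells positions 14 to 21 held 37.7% and 48.5% and positions 22 to 26 held 32.9% and 23.7%, so treated DUS2L cells lay above in the first region and below in the second. Both directions turned when sites above 500 counts were left out, to -8.09 points and 8.05 points.

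For tRNA-Glu-TTC the region with the clearest separation was positions 27 to 31, at 9.51% and 7.63% in treated DUS2L cells, against 2.90% and 2.42% in untreated DUS2L cells. Positions 2 to 9 held 27.2% and 34.5% in treated cells, against 35.02% and 42.2%. Positions 14 to 21 overlapped, with 22.8% and 14.7% in treated cells, against 19.6% and 23.1%, as did positions 49 to 65, with 6.07% and 17.6%, against 3.52% and 6.41%. The 2 treated DUS2L libraries were thus further apart than the untreated ones in the D loop and the T arm.

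The summed overlap of position profiles, 100% where profiles are identical, is given as a description. For CTC it was 79.2% between the treated DUS2L libraries, 89.2% between the untreated DUS2L libraries, 77.4% to 81.7% across those groups, and 44.2% to 57.6% between treated DUS2L and treated DUS1L libraries, which overlapped each other by 78.9%. For TTC it was 75.1% between treated and 80.2% between untreated DUS2L libraries and 64.4% to 72.2% across them. The treated DUS1L libraries overlapped each other by 48.3% for TTC on 113 and 158 counts, no better than the 49.9% to 61.7% with treated DUS2L libraries.

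Glu-CTC-1 carried nearly all CTC counts, 98.4% and 97.8% in treated DUS2L cells, 97.4% and 98.0% in untreated DUS2L cells, and 98.7% and 99.3% in treated DUS1L cells. Its counts ended at position 33 in all libraries. Glu-CTC-2, with 54 to 114 counts per DUS2L library, extended to position 62, and positions 49 to 65 held 5.26% and 50.7% of it in treated DUS2L cells, against 3.70% and 9.26% in untreated DUS2L cells. Near-identical references share reads, so how counts divide among them is uncertain.

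TTC counts in DUS2L cells came almost wholly from Glu-TTC-1 and Glu-TTC-2. Glu-TTC-1 made up 45.2% and 47.7% of TTC in treated DUS2L cells, against 36.9% and 38.7% in untreated DUS2L cells, and Glu-TTC-2 made up 52.1% and 50.2%, against 61.3% and 59.7%. Glu-TTC-4, from which counts came only at positions 9 to 33, had 1.94% and 0.987% in treated DUS2L cells, and Glu-TTC-3 had 0.697% and 1.14%. In treated DUS1L cells Glu-TTC-4 made up 27.4% and 13.9% on 31 and 22 counts, and Glu-TTC-3 made up 14.2% and 9.49% on 16 and 15 counts. The pseudogene reference Glu-TTC-14 had 1 to 11 counts in each library except the untreated DUS1L ones, where it had none.

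The authors' deposited peaks, whose scores equalled the summed site counts in 1680 of 1680 peaks, gave 7 and 10 glutamate peaks in treated DUS2L cells, 4 and 7 in untreated DUS2L cells, 2 and 2 in treated DUS1L cells and none in untreated DUS1L cells. These were 3.11% and 3.33% of all peaks in treated DUS2L cells, 2% and 3.48% in untreated DUS2L cells, and 0.597% and 0.781% in treated DUS1L cells, and untreated DUS1L cells had only 126 and 37 peaks in all. A peak on Glu-CTC-1 was called in all 4 DUS2L libraries. It ran from position 17 to 19 in both treated ones, with scores of 2606 and 1745, and from 15 or 16 to 19 in the untreated ones, with scores of 1499 and 1810. On Glu-TTC-1 and Glu-TTC-2 the anticodon-loop peak ran from position 31 to 34 in both treated DUS2L libraries and from 33 to 34 in both untreated ones. Peaks at positions 2 to 5 of Glu-TTC-1 (score 2178) and 2 to 4 of Glu-TTC-2 (score 1988) were listed in the second treated DUS2L library and in no other. The 4 DUS1L peaks were all on TTC references, with scores of 10 to 26, and none was on tRNA-Glu-CTC, although CTC had more counts in those libraries.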

How the data were processed

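The study made 8 iCLIP libraries, 2 in each of 4 groups taken from the labels. The authors deposited, for each library, whole-number counts per single-nucleotide site and strand and a list of peaks scored by summed counts, neither normalized. STAR 2.7.0f and hg38 are named in the submitters' processing notes, and the handling of duplicate and multi-mapping reads is not given in the sources used here. Sense counts were summed by tRNA family (amino acid and anticodon) or rRNA, and by family and position. A family or position entered a test where its counts reached 10 in the libraries of that fit. The test was edgeR 4.0.16's quasi-likelihood test (R 4.3.3), with total sense counts as library size and Benjamini-Hochberg adjustment over all families or all positions at 0.05. Changes with 5-ClUrd were fitted on the 4 libraries of an enzyme, and differences between enzymes on all 8. Errors after ± on log2 values are standard errors. Region shares were compared by exact two-sided permutation tests. Scripts were tested on simulated data.

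The alternatives tried were scaling by TMM or by DESeq2 1.42.0's size factors (poscounts), DESeq2's Wald test, the tRNA total, minimum counts of 1 and 50, a replicate block, one fit of 8 libraries, both strands, leaving out sites above 500 counts, and leaving out each library. The series calls the libraries biological replicates; how cultures were kept apart is not stated, so p-values measure the spread between these libraries. The counts of partner libraries differed by far more than sampling noise, with a chi-square per degree of freedom of 54.9 to 285. Named positions were the 5 leading ones per group, those called (up to 10 per contrast by size of change, the rest as a range), and 16, 17, 20 and 47. Members and lists were chosen with earlier results of these data known. No tRNA sequence table was used here, so no sequence is printed.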

Additional observations from a re-analysis of the deposited data

Results flagged for a closer look

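The response of tRNA-Glu-CTC to 5-ClUrd differed between the enzymes by a direct test: the log2 change in DUS2L cells minus that in DUS1L cells was -3.85. Of 55 families, 18.2% differed in that direction. Among the alternatives that gave a value, 14 kept the CTC call and 2 lost it. In DUS2L cells the treated libraries held 1.96% and 0.929% of sense counts, against 1.59% and 1.61% untreated, and in DUS1L cells 0.0457% and 0.0551%, against 0.00416% and 0%. The second untreated DUS1L library held only 7369 counts, and without it the difference was -3.74 (edgeR adjusted p = 0.00286). Without the first, which leaves untreated DUS1L cells with no glutamate count, the adjusted p was 0.0845.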

How the results depend on the processing

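Both enzyme differences of each isoacceptor kept their direction and passed in every alternative that gave a value; treated, they ranged from 7.55 to 8.64 (TTC) and 4.20 to 5.28 (CTC) with a library left out. In DUS1L cells the CTC rise missed the threshold with TMM (2.66) and DESeq2 size factors (2.15), and without sites above 500 counts (2.88), and ranged from 3.59 to 3.94 with a library left out; TTC was -0.34 with DESeq2 size factors and 0.76 to 1.84 with a library left out. DESeq2's Wald test gave neither an adjusted p there. In DUS2L cells the TTC rise missed it with TMM (0.23), DESeq2 size factors and the Wald test (0.11 each) and one fit of 8 libraries (0.88), and ranged from 0.67 to 1.06 with a library left out. CTC fell with TMM (-0.80), DESeq2 size factors and the Wald test (-0.92 each), was 0.61 without sites above 500 counts, and ranged from -0.78 to 0.29. The CTC response difference was -2.24 without those sites and -4.49 to -3.41 with a library left out; that of TTC was 1.33 and -0.77 to 0.31. The causes were not tested. Glutamate positions called in DUS1L cells (4) numbered 0 with TMM, DESeq2 size factors, the Wald test and a minimum of 1 count, 1 in one fit, and 0 to 7 with a library left out (0 without the first untreated one). Those in DUS2L cells (19) numbered 41 with TMM and DESeq2 size factors, 31 with the Wald test, 11 with minimum counts of 1 and of 50, 11 with the replicate block, and 0 to 31 with a library left out. Response differences (0) numbered 4 with the Wald test, 1 with a minimum of 50, and 0 to 1. Untreated enzyme differences (59) numbered 37 with the Wald test, 38 with DESeq2 size factors and 14 to 60, the 14 without the first untreated DUS1L library; treated ones (82) ranged from 70 to 82.

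Among region shares (points), leaving out sites above 500 counts turned CTC 14 to 21 (-8.09) and 22 to 26 (8.05) between enzymes, TTC 2 to 9 with 5-ClUrd in DUS2L cells (10.0427) and TTC 27 to 31 between enzymes (-1.09). Counting each site once turned CTC 22 to 26 (-1.84) and 27 to 31 (-3.31) with 5-ClUrd in DUS2L cells and, between enzymes, TTC 14 to 21 (-5.63), 27 to 31 (-1.09) and 49 to 65 (5.33). With a library left out, TTC 14 to 21 ranged from -6.66 to 1.42 with 5-ClUrd and from -6.95 to 9.22 between enzymes, TTC 22 to 26 from -12.5 to 0.88 and TTC 49 to 65 from -10.2 to 1.30 between enzymes.

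Scaling moved the whole set. Families higher and lower with 5-ClUrd were 12 and 1 in DUS1L cells (2 and 8 with TMM, 2 and 9 with DESeq2 size factors) and 29 and 13 in DUS2L cells (19 and 21, 18 and 21). The replicate numbers gave correlations of deviations of 0.272 (DUS1L) and 0.301 (DUS2L) over only 2 pairs each, which is too few to show whether the numbers pair the libraries. With the replicate block the glutamate family changes were 3.73 (CTC) and 1.05 (TTC) in DUS1L cells and -0.25 and 0.87 in DUS2L cells. No glutamate family call changed with it. Over all families, those higher and lower were then 18 and 1 in DUS1L cells and 28 and 10 in DUS2L cells. Depth limits the untreated DUS1L group, where 21 glutamate counts were found in all.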
